A study of Mus musculus with 4 samples.

Results

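The genes of the platelet-derived growth factor (PDGF) family were followed through single cells of mouse popliteal lymphatic vessels (PLVs) and saphenous veins. The family was taken as 7 genes by symbol, 3 for receptors (Pdgfra, Pdgfrb and Pdgfrl) and 4 for ligands (Pdgfa, Pdgfb, Pdgfc and Pdgfd), of the 30406 genes listed in all libraries. All 7 genes were detected, and the question was which cells carried the receptors, which cells carried the ligands, and how the levels in the TNF-Tg library compared with those in the WT library.

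Vessels of 3 mice were pooled for each of 4 libraries, each prepared on a day of its own. The tdT1 and tdT2 libraries held cells sorted as live and tdTomato (tdT)+ from male and female Cspg4-Cre;Ai9-tdTomato mice more than 8 months old, in which Cre is driven by the promoter of Cspg4, a gene of mural cells. The WT and TNF-Tg libraries held live cells sorted by high light scatter, without a reporter, from male mice labelled as 9 months old. TNF-Tg mice carry a TNF transgene and develop inflammatory-erosive arthritis, WT mice do not carry it, and all mice shared a C57BL/6J background. The tdT1 library also differed from the others in the nozzle of the sort and in the sequencer.

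PDGFs are dimeric growth factors that activate a pair of receptor tyrosine kinases. The A and C chains bind mainly the receptor encoded by Pdgfra, which is typical of fibroblasts and their precursors. The B and D chains bind the receptor encoded by Pdgfrb, which is typical of mural cells and also present on fibroblasts. The B chain also binds the receptor encoded by Pdgfra. PDGF-B from endothelium recruits mural cells to growing vessels, and the C and D chains are secreted in a latent form that proteases must cleave before they bind.

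The libraries differed in size. The numbers of cells were 1504 (tdT1), 454 (tdT2), 5488 (WT) and 3391 (TNF-Tg). The median cell had 6389.5, 4911, 12599 and 10542 unique molecular identifiers (UMIs), and 34.3% of the tdT1 cells had more than 10% mitochondrial UMIs against 0.220% to 4.59% elsewhere. Scrublet predicted 4, 1, 138 and 72 doublets, which were kept, and 11 barcodes occurred in more than 1 library. Cells were classed by gates on marker gene panels that held none of the 7 genes. Stromal cells numbered 956, 244, 2187 and 1105 in the same order. They were split along a score difference into LMC-type, intermediate and VSMC-type stroma. LMC stands for lymphatic muscle cell and VSMC for vascular smooth muscle cell, names that the study gives to clusters with these marker genes. The split was a cut through a range, with 118, 48, 154 and 175 stromal cells within 0.05 of it.

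Acta2, Myh11 and Tagln, genes of contractile smooth muscle, were close to absent in LMC-type and VSMC-type stroma, as the study also reports. It proposes the low read depth of droplet sequencing as a possible reason. It also saw limited tdT in these vessels of Acta2-Cre and Acta2-CreER reporter mice, and proposes relatively low Acta2 mRNA. The study rests the names on Pdgfrb, Cald1, Tpm1, muscle-related transcription factors, lymphangiogenic and angiogenic factors, reporter sorting and staining of the vessels for smooth muscle actin. To tell the clusters apart it uses higher Cst3, Mgp and Bgn in VSMCs and higher Ackr3 and Vegfd in LMCs. The study also reports high Pdgfra, as a non-specific fibroblast gene, in both clusters, and proposes that the cells are myofibroblast-like. In Pdgfrb-CreER reporter mice it saw tdT together with smooth muscle actin. It does not fully exclude that the cells are myofibroblasts from surrounding tissue. Apart from the RNA of Pdgfra and Pdgfrb, and the use of Mgp and Bgn in the VSMC-type panel, that evidence was not examined here. Acta2 and Myh11, which encode contractile proteins of smooth muscle, had 3 and 2 UMIs in the 699 LMC-type cells of tdT1, and 18 and 0 UMIs in the 332 VSMC-type cells of TNF-Tg. The summed level of an 11-gene contractile panel, which also held pericyte genes, was 36.2 to 129 UMIs per 1000000 UMIs (CPM) across the 3 stromal classes and 4 libraries. In LMC-type stroma of tdT1 it was 70.35 CPM, with 0.342 for Acta2, 0.684 for Tagln, 0.228 for Myh11 and 3.42 for Cspg4. Most of that sum thus lay in other genes of the panel. The 10 cells of tdT1 gated on that panel had 11910 CPM, a high level that the gate itself ensured. They had 140 UMIs of Krt14 and 0 of Rgs5, and do not serve as a reference for smooth muscle. The 8 genes of the broad stromal panel, with Col1a1, Col3a1 and Dcn among them, summed to 42290 to 56530 CPM in LMC-type stroma. This high level was likewise ensured by the gate, which used the same 8 genes. The classes are therefore named by type and describe cells gated on these stromal genes.

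Pdgfra (ENSMUSG00000029231, chr5:75152292-75198215, plus strand) encodes the alpha receptor. Its level is the sum over all cells of a class, in CPM. In LMC-type stroma Pdgfra stood at 412 CPM in tdT1 and 554 in tdT2, and at 428 in WT and 498 in TNF-Tg. In intermediate stroma the levels were 591, 805, 481 and 532 CPM, and in VSMC-type stroma they were 668, 671, 493 and 368 CPM. The gene was high in every stromal class of every library, and the ranges of the 3 classes overlapped. Among leukocytes it was close to absent, with 0.883 CPM in the 1461 Lyve1 macrophages of WT (95% Poisson interval 0.505 to 1.43). After each cell was thinned at random to 3000 UMIs, 68.3% of the LMC-type cells of WT and 0.212% of those macrophages had a Pdgfra UMI, at median depths of 16006 and 12433 UMIs before thinning, and stray RNA in the droplets was not estimated. The 49 red blood cells of TNF-Tg had 17.6 CPM, from 9 UMIs in 2 cells. Intervals and floors throughout cover counting error only. Exons of Mir7025 overlap Pdgfra on the same strand and exons of Gm42802 and Gm42803 overlap it on the opposite strand in GENCODE vM21.

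Pdgfrb (ENSMUSG00000024620, chromosome 18) encodes the beta receptor. Its levels in LMC-type stroma were 76.5 CPM in tdT1 and 169 in tdT2, with 53.6 in WT and 43.0 in TNF-Tg. Intermediate stroma had 170.5, 116, 78.6 and 51.7 CPM, and VSMC-type stroma 138, 116, 89.6 and 50.9 CPM. Both tdT libraries lay above WT and TNF-Tg in each of the 3 classes. Whether the tdT sort, the sex of the mice or the run accounts for this cannot be told apart. The share of all genes with that order of libraries was not counted. WT Lyve1 macrophages had 0.497 CPM (0.227 to 0.943), and the Ear2 phagocytes of WT had 0 UMIs in 323 cells, which allows up to the level of 3 UMIs. In TNF-Tg the leukocyte levels were 1.58 CPM (0.755 to 2.90) in inflammatory monocytes, 2.91 (1.07 to 6.33) in patrolling monocytes and 1.90 (0.618 to 4.44) in Cd209a dendritic cells, with intervals that overlap. The 90 mast cells of WT had 23.4 CPM (4.83 to 68.5) from 3 UMIs.

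Pdgfrl (ENSMUSG00000031595, chr8:40926212-40990785, plus strand) encodes a receptor-like protein without a kinase domain. It was the receptor gene with the steepest gradient in the stroma. LMC-type stroma had 7.64 CPM in tdT1 and 0 in tdT2, and 6.33 in WT and 2.80 in TNF-Tg, whereas VSMC-type stroma had 47.4, 53.4, 78.2 and 22.9 CPM. The 0 in tdT2 was 0 UMIs in 110 cells, where 3 UMIs would have given 4.83 CPM. No VSMC-type value was as low as the highest LMC-type value, and no leukocyte class of at least 20 cells reached 2 CPM. The share of all genes with such a gap between the stromal classes was not counted.

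**Figure D1:**
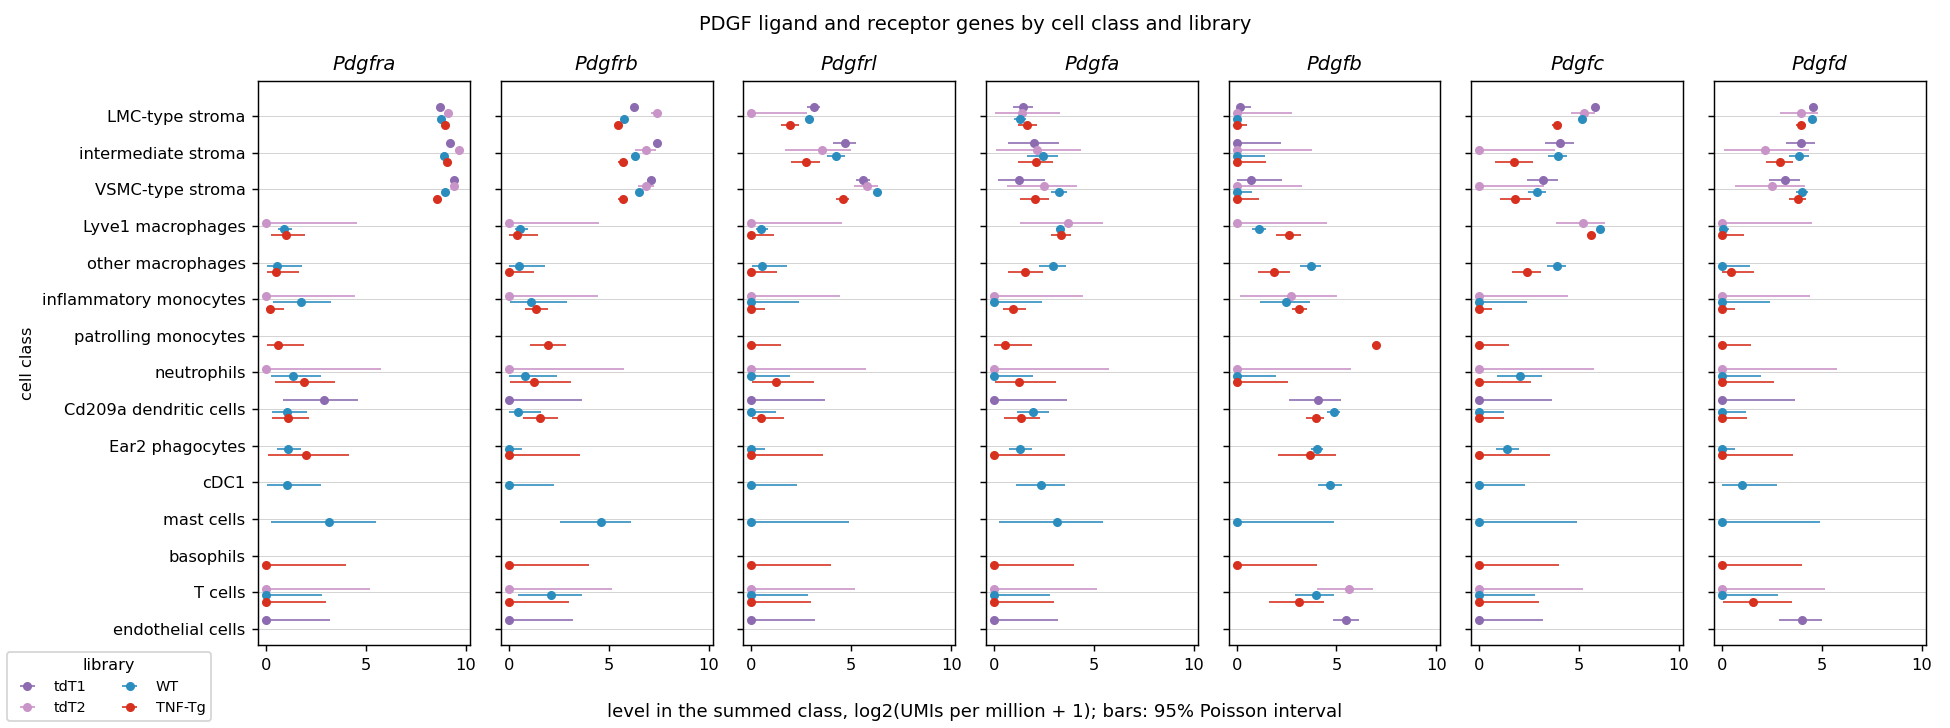
Level of each PDGF gene, as log2(CPM + 1), in classes of at least 20 cells, with 1 point per library (tdT1 and tdT2 in purple shades, WT blue, TNF-Tg red) and 95% Poisson intervals as bars. Red blood cells, unassigned cells and cells that scored for both stroma and leukocytes are not drawn. The 3 receptor genes lie farthest to the right in the 3 stromal classes, Pdgfb lies to the right in leukocytes and endothelial cells, and Pdgfc is high in LMC-type stroma and in Lyve1 macrophages.

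LMC-type and VSMC-type stroma were set against each other with edgeR (quasi-likelihood test) on sums per class and library, with the library as a block. The test asks whether LMC-type and VSMC-type stroma of the same library differ by more than the spread over the 4 libraries. Of the 6 members that were tested, 1 was called lower in LMC-type stroma and 1 higher at a false discovery rate of 0.01, against a background of 8.31% of 11362 genes called lower and 6.59% called higher. Pdgfrl was lower in LMC-type stroma by a log2 fold change of -3.37 (SE 0.23, adjusted p = 1.96e-08), in 4 of 4 libraries. Pdgfc was higher by 2.52 (SE 0.23, adjusted p = 6.09e-07), also in 4 of 4 libraries. Pdgfra differed by -0.28 (SE 0.16, adjusted p = 0.227) and Pdgfrb by -0.52 (SE 0.18, adjusted p = 0.0460), and neither passed. Without tdT2, the library with the fewest stromal cells, Pdgfrb was called lower, at -0.74 (SE 0.14, adjusted p = 0.00314). The classes were cut from other genes of the same cells. These p-values therefore set a gene's difference between the gated classes against its spread over 4 libraries, each a pool of 3 mice. They do not say whether the gene would differ in new mice.

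Along the whole score difference, from the VSMC-type end to the LMC-type end, Pdgfrl and Pdgfc ran in opposite directions. In WT, Pdgfrl had 112, 31.8, 18.1, 9.66, 7.63 and 5.10 CPM in 6 consecutive bins, and Pdgfc had 5.88, 7.27, 14.4, 22.4, 34.4 and 37.4 CPM in the same bins. Pdgfrl in TNF-Tg went from 27.1 CPM at the VSMC-type end to 0.305 at the LMC-type end, and Pdgfc from 1.18 to 17.1 CPM. Pdgfrb was lower at the LMC-type end in tdT1 (147 to 60.4 CPM), WT (98.4 to 47.1) and TNF-Tg (67.1 to 33.9), and not in tdT2 (139 to 164), where the bins held 21 to 62 cells. Pdgfra had no common direction over the first 5 bins and was lowest in the last bin in tdT1, tdT2 and WT.

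**Figure D2:**
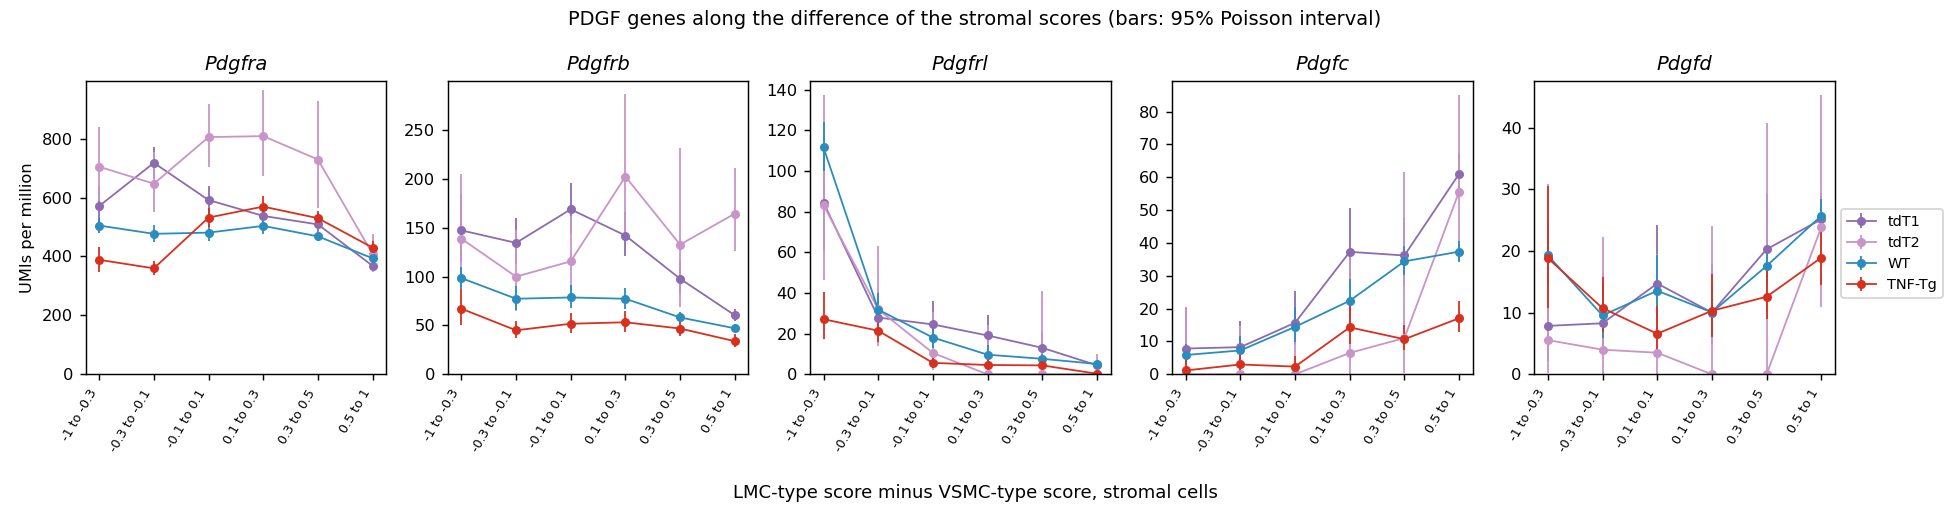
CPM of 5 PDGF genes (y axis, a scale per gene) in 6 bins of the score difference of stromal cells (x axis, VSMC-type end at the left), with 1 line per library and 95% Poisson intervals. Pdgfrl declines and Pdgfc climbs toward the LMC-type end in all 4 libraries, and the red TNF-Tg line lies lowest for Pdgfrb in all 6 bins.

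The 2 kinase receptors were then read in the same cells. Before thinning, 46.4% of LMC-type cells in both tdT libraries, 48.6% in WT and 38.8% in TNF-Tg had UMIs of both Pdgfra and Pdgfrb, while 94.3%, 88.7%, 96.6% and 94.5% of all Pdgfrb-positive stromal cells also had Pdgfra. Pdgfra was also found in 68.2%, 77.5%, 87.3% and 82.1% of the stromal cells without a Pdgfrb UMI. Cells with Pdgfrb and no Pdgfra UMI were 28 of 956, 13 of 244, 36 of 2187 and 23 of 1105 stromal cells. At 3000 UMIs they were 45 of 722, 14 of 188, 90 of 2040 and 33 of 1020, so their number depends on depth. Cells outside the stromal gate are not in these counts. At a common depth of 3000 UMIs the joint shares were 14.7%, 27.6%, 10.5% and 8.69% in LMC-type stroma and 26.6%, 18.2%, 17.9% and 7.58% in VSMC-type stroma. These sat close to the product of the single shares. The ratio of joint share to product was 1.04, 1.00, 1.05 and 1.08 in LMC-type stroma, with intervals of 0.834 to 1.27, 0.675 to 1.39, 0.897 to 1.22 and 0.810 to 1.40. In VSMC-type stroma the ratio was 1.05 in both tdT libraries, 1.10 in WT and 1.11 in TNF-Tg, and all 4 intervals included 1. Without thinning, where deep cells show both genes more often, the ratio reached 1.16 (1.07 to 1.25) in LMC-type stroma of tdT1 and 1.21 (1.00 to 1.43) in VSMC-type stroma of TNF-Tg. These intervals, and those of other gene pairs below, take the product as fixed although it comes from the same cells. An interval that includes 1 therefore does not decide whether the genes go together. At 3000 UMIs Pdgfra was found in 74.6%, 75.9%, 73.2% and 72.5% of Pdgfrb-positive stromal cells. Among stromal cells without a Pdgfrb UMI it was found in 68.8%, 73.85%, 67.9% and 66.4%, and the difference was not tested. Thinning left out 155, 23, 33 and 8 LMC-type cells and 36, 19, 89 and 55 VSMC-type cells. Cells of 1 library are not replicates, and the intervals do not cover differences between mice.

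**Figure D3:**
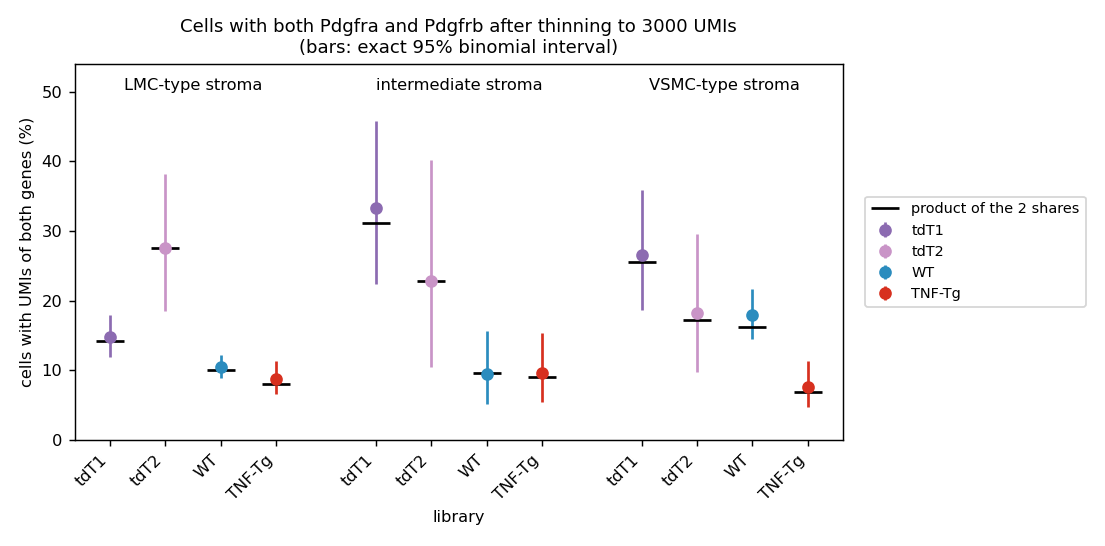
Share of stromal cells with UMIs of both Pdgfra and Pdgfrb after thinning to 3000 UMIs (y axis, %) by stromal class and library, with exact 95% binomial intervals. Black dashes mark the product of the 2 single shares, which lies inside the interval in all 12 cases.

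Pdgfc (ENSMUSG00000028019, chr3:81036416-81214040, plus strand) is a ligand of the alpha receptor. It had the most UMIs of the 4 ligand genes in tdT1, tdT2 and WT, whereas in TNF-Tg Pdgfb had more (420 against 308). LMC-type stroma had 54.2 CPM in tdT1 and 37.0 in tdT2, and 34.9 in WT and 14.0 in TNF-Tg, with 8.13, 0, 6.47 and 2.52 CPM in VSMC-type stroma. The other large source was the Lyve1 macrophages, resident macrophages that share markers with cells around vessels, at 64.8 CPM in WT, 48.1 in TNF-Tg and 35.9 in tdT2. Macrophages without that program had 13.8 CPM in WT and 4.17 in TNF-Tg, and monocytes of both kinds had 0 UMIs in TNF-Tg. Of the 2191 Pdgfc UMIs in WT, 53.6% (51.5 to 55.7) lay in Lyve1 macrophages and 38.0% (35.9 to 40.0) in LMC-type stroma. The split was similar among the 308 UMIs of TNF-Tg, at 48.7% and 37.3%, although Lyve1 macrophages made up 26.6% of all WT cells and 7.73% in TNF-Tg. In tdT1, with 15 Lyve1 macrophages, LMC-type stroma held 85.4% of 556 UMIs. Such shares depend both on the number of cells of each class that a sort let through and on the level of the gene in each class.

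Pdgfd (ENSMUSG00000032006, chr9:6168584-6378850, plus strand) is a ligand of the beta receptor. Its levels were 22.5, 14.5, 21.6 and 14.6 CPM in LMC-type stroma, and 8.13, 4.64, 15.2 and 12.9 CPM in VSMC-type stroma, again in the order tdT1, tdT2, WT and TNF-Tg. The ranges of the classes overlapped, although LMC-type stroma was the higher class within every library. The fit gave 0.51 (SE 0.21, adjusted p = 0.0949), which did not pass. Stroma held 93.0%, 100%, 96.3% and 95.1% of the UMIs of Pdgfd in the 4 libraries, of 241, 12, 650 and 184 UMIs. Outside the stroma, the 36 endothelial cells of tdT1 had 15.5 CPM (6.22 to 31.9), and cells that scored for both stroma and leukocytes had 9.32 CPM in WT (116 cells) and 4.85 in TNF-Tg (64 cells). Beside macrophages Pdgfd was thus a stromal ligand here, with 1 UMI in the 1461 Lyve1 macrophages of WT, whereas Pdgfc was shared with macrophages. WT and TNF-Tg held very few endothelial cells, so the shares of Pdgfd say little about endothelium.

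The sequences before the starts of Pdgfc and Pdgfd are shown because these were the ligand genes of the stroma and differed in their second source. They are the 250 bases upstream of the RefSeq start on GRCm38.p6, Pdgfc at chr3:81036166-81036415 and Pdgfd at chr9:6168236-6168485, both on the plus strand, 5′ to 3′. Capitals mark the only match to a motif searched.
Pdgfc: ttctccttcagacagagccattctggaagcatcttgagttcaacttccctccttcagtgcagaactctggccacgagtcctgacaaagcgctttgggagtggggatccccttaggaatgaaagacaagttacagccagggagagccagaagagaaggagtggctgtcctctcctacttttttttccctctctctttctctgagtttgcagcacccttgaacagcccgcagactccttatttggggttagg
Pdgfd: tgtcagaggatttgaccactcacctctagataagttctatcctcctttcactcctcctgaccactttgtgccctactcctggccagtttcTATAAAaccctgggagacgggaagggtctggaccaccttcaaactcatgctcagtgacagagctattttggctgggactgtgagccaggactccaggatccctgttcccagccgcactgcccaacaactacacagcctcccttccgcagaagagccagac
Searched on both strands were the TATA box letters TATAAA, the GC box letters GGGCGG and the AP-1 site letters TGACTCA. The table held promoters of 4 of the 7 genes, 5 in all. TATAAA occurred in that of Pdgfd, 160 bases before the start, and in 12.4% of 32851 mouse promoters of the same length. GGGCGG occurred in both promoters of Pdgfa and in 32.7% of all promoters, and TGACTCA in no member and in 4.46% of all. A match describes letters only.

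Pdgfa (ENSMUSG00000025856, chr5:138976014-138997370, minus strand) encodes the A chain and was low in the stromal and macrophage classes. WT VSMC-type stroma had 8.56 CPM (6.24 to 11.5) and TNF-Tg VSMC-type stroma 3.14 (1.51 to 5.78), against 1.36 and 4.64 in tdT1 and tdT2 from 2 UMIs each. LMC-type stroma ran from 1.43 CPM in WT to 2.19 in TNF-Tg. The fit between the classes gave -1.61 (SE 0.46, adjusted p = 0.0190), which did not pass, and without tdT1 it was -1.97 (adjusted p = 0.00264), which did. Lyve1 macrophages had 8.94 CPM in WT (7.62 to 10.4) and 9.30 in TNF-Tg (6.23 to 13.4), and held 54.7% of the 296 Pdgfa UMIs of WT. Far higher levels stood in a few cells, at 199 CPM (116 to 318) in the 10 contractile-panel cells of tdT1 and 152 CPM (69.5 to 289) in the 6 endothelial cells of TNF-Tg. Exons of 6330403L08Rik overlap Pdgfa on the opposite strand, and exons of Gm16000 overlap Pdgfc on the opposite strand.

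Pdgfb (ENSMUSG00000000489, chr15:79995874-80014977, minus strand) encodes the B chain and was held mostly by leukocytes in WT and TNF-Tg, and in tdT1 also by endothelial cells (35.1% of 57 UMIs, the largest share there) and contractile-panel cells (12.3%). Stromal cells had 2 UMIs of Pdgfb in tdT1 and 0 in tdT2, WT and TNF-Tg. The highest level in a class of at least 20 cells was that of the TNF-Tg patrolling monocytes, at 124 CPM (109 to 140). These are the circulating monocytes that crawl along endothelium. Of the 235 cells, 124 had no Pdgfb UMI, 43 had 1, 40 had 2 and 28 had 3 or more, with 9 in the highest cell, so the level did not rest on a few cells. The other libraries held 5 to 7 patrolling monocytes each, with 44.4 CPM (9.15 to 130) in tdT1, 107 (22.1 to 314) in tdT2 and 93.6 (30.4 to 218) in WT. Their intervals include the TNF-Tg level, and no difference in level per monocyte was detectable with so few cells.

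Lower levels of Pdgfb were found in dendritic cells, macrophages and T cells. Cd209a dendritic cells had 15.8 CPM in tdT1, 28.2 in WT and 14.5 in TNF-Tg, cDC1 of WT had 25.0, and Ear2 phagocytes had 15.3 in WT and 11.8 in TNF-Tg. T cells had 57.8 CPM in tdT1 (6 UMIs in 14 cells), 47.8 in tdT2 (5 UMIs in 20 cells), 14.7 in WT and 7.64 in TNF-Tg, and held 22.7% of the 22 Pdgfb UMIs of tdT2. Inflammatory monocytes of TNF-Tg had 7.87 CPM (5.84 to 10.4), below the patrolling monocytes of the same library by more than the counting intervals. The 36 endothelial cells of tdT1, the textbook source of PDGF-B, had 44.2 CPM (27.0 to 68.2), and WT and TNF-Tg held 2 and 6 endothelial cells. Neutrophils had 0 UMIs in WT (341 cells) and TNF-Tg (221 cells). Platelet genes summed to 2.42 CPM over 5 genes in the TNF-Tg patrolling monocytes, with 3 of the 5 at 0. The same genes summed to 32.9 CPM in TNF-Tg LMC-type stroma, where Pdgfb had 0 UMIs. Platelet RNA as a source of Pdgfb was not tested.

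The cells that held Pdgfb differed between WT and TNF-Tg. In WT, dendritic cells and Ear2 phagocytes held 68.3% (62.6 to 73.6) of 287 UMIs. In TNF-Tg, monocytes held 72.6% (68.1 to 76.8) of 420 UMIs (patrolling monocytes alone 60.7%), and dendritic cells with Ear2 phagocytes held 11.0%. Patrolling monocytes were 0.109% of all cells in WT and 6.93% in TNF-Tg, and Ear2 phagocytes numbered 323 cells in WT and 23 in TNF-Tg. A share of UMIs moves with the number of cells of a class in the library, and with 1 library per condition it has no replicate check.

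**Figure D4:**
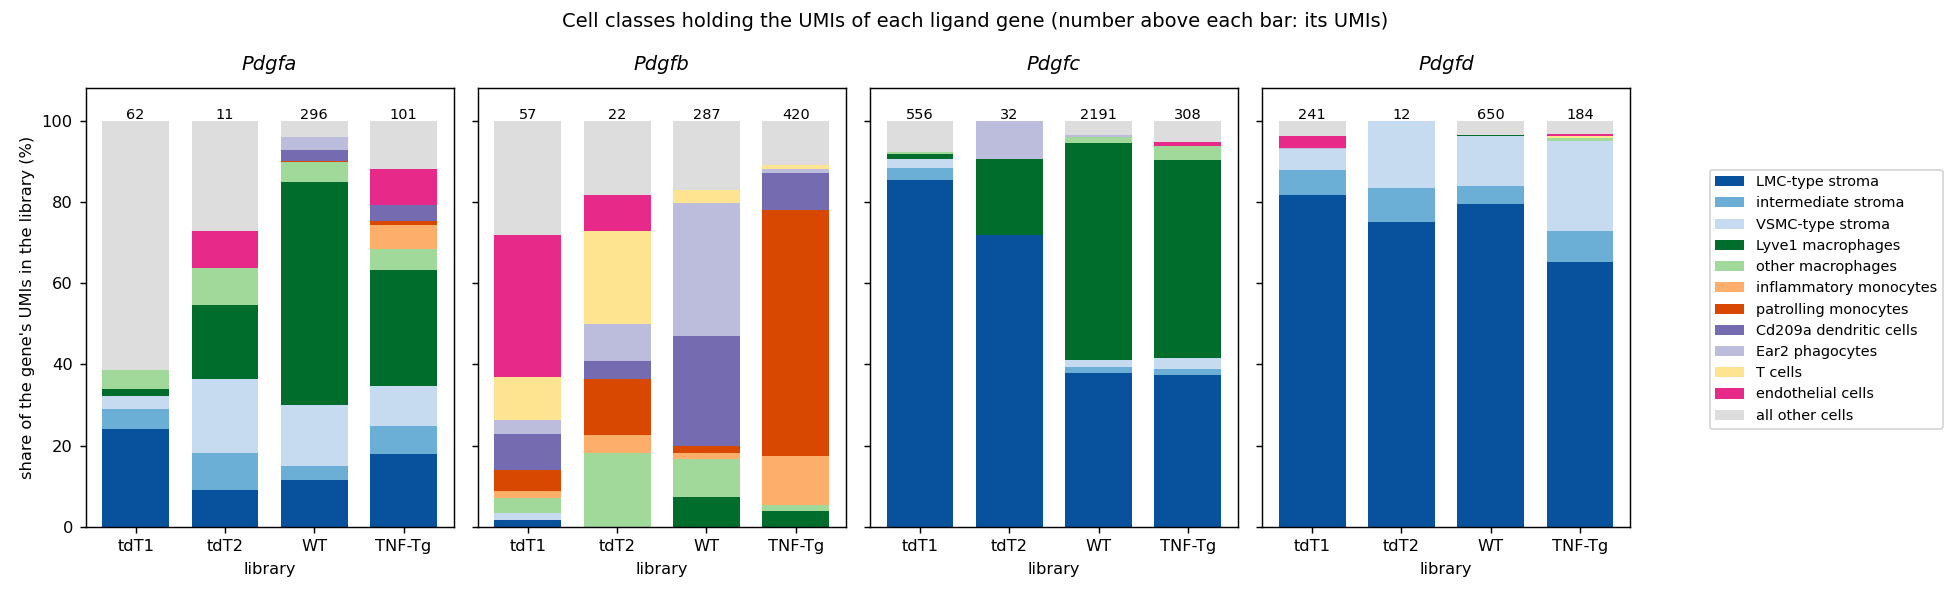
Share of the UMIs of each ligand gene held by each cell class (y axis, %), with 1 stacked bar per library and the UMIs of the gene above it. Stroma in blue holds nearly all of Pdgfd, Pdgfc is split between blue stroma and green macrophages, and Pdgfb moves from purple dendritic cells and Ear2 phagocytes in WT to orange monocytes in TNF-Tg.

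Stroma and macrophages of the same library were compared by the same test. Of the 7 members, 4 were called higher in stroma, against a background of 26.0% of 12802 genes, and 3 were called lower, against 18.8%. Higher in stroma were Pdgfra at a log2 fold change of 9.12 (SE 0.43, adjusted p = 1.21e-09), Pdgfd at 7.86 (SE 0.50), Pdgfrb at 7.20 (SE 0.36) and Pdgfrl at 6.02 (SE 0.44). Lower were Pdgfb at -6.66 (SE 0.72, adjusted p = 3.97e-06), Pdgfa at -1.52 (SE 0.36, adjusted p = 0.00269) and Pdgfc at -0.83 (SE 0.24, adjusted p = 0.00992). The call of Pdgfc stood at the threshold and was lost when tdT2, WT or TNF-Tg was left out (adjusted p = 0.0107, 0.0581 and 0.0420), and that of Pdgfa was lost without WT (adjusted p = 0.0208). Genes near 0 on one side, such as Pdgfb and Pdgfrl, have fold changes that depend on the prior count. The tdT1 and tdT2 sums held 23 and 52 macrophages.

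Receptor and ligand were also read in the same stromal cells after thinning. In LMC-type stroma of WT, 6.55% of the cells had both Pdgfra and Pdgfc, at a ratio to the product of 1.00 (0.815 to 1.22), and in TNF-Tg 2.73% did, at 0.984 (0.565 to 1.58). Pdgfrb and Pdgfd were found together in 10 of 1450 thinned LMC-type cells of WT, at a ratio of 0.834 (0.401 to 1.53), and in 3 of 722 stromal cells of tdT1, at 0.331 (0.0683 to 0.963). The value of tdT1 turned with the depth, to 0.866 (0.105 to 3.12) at 1500 UMIs and 1.28 (1.06 to 1.52) without thinning, and no direction is read from it. Over all stroma of WT the ratio was 0.974 (0.568 to 1.56). At 3000 UMIs Pdgfra was found in 75.3%, 66.7%, 68.35% and 69.6% of Pdgfc-positive LMC-type cells of tdT1, tdT2, WT and TNF-Tg. Among LMC-type cells without a Pdgfc UMI it was found in 65.8%, 75.3%, 68.27% and 70.7%. The shares were thus close in WT and TNF-Tg and differed in opposite directions in tdT1 and tdT2. The differences were not tested, and only 4 cells of tdT2 had both genes.

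The TNF-Tg and WT libraries were compared class by class as ratios with exact counting intervals. There is 1 library per condition, each from its own day, so there is no test of the condition, and condition and day cannot be told apart. The ratio of tdT2 to tdT1 is given as the size of a difference between libraries that share a label. The tdT libraries also differed in sort nozzle and sequencer, which WT and TNF-Tg shared, so that ratio is not a like-for-like scale. A member with at least 20 UMIs over both libraries was called when the fold passed 1.5 and the 95% interval excluded 1. In LMC-type stroma, 2 of 6 such members were called lower in TNF-Tg and 0 higher, beside 12.7% and 11.3% of 12103 genes. In VSMC-type stroma 4 of 6 were lower and 0 higher, beside 25.1% and 10.4% of 10593 genes, and in intermediate stroma 4 of 5 were lower, beside 20.7% lower and 11.3% higher of 9482 genes. The median gene was lower in TNF-Tg by 0.23 on the log2 scale in VSMC-type stroma and by 0.15 in intermediate stroma. It was within 0.05 of 0 in LMC-type stroma. With TMM scaling, which moved the log2 ratios in VSMC-type stroma by 0.20, the called members stood at -0.62 (Pdgfrb), -1.57 (Pdgfrl), -1.25 (Pdgfa) and -1.17 (Pdgfc). Whether their shared direction goes with that of all genes was not tested.

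Pdgfc was lower in TNF-Tg LMC-type stroma, at 14.0 against 34.9 CPM, a log2 ratio of -1.32 (-1.61 to -1.03). It lay below all 3 other libraries, whereas tdT2 over tdT1 was -0.55 (-1.22 to 0.05). It was also lower in intermediate (-2.62) and VSMC-type stroma (-1.36), but tdT2 had 0 UMIs of Pdgfc in both. TNF-Tg thus lay within the range of the other libraries there. In intermediate stroma tdT1 had 16 UMIs of Pdgfc, too few for a call between the tdT libraries. In Lyve1 macrophages the ratio of Pdgfc was -0.43 (-0.68 to -0.18) and under the fold. Pdgfrl was lower in LMC-type (-1.18, -1.88 to -0.54), intermediate (-1.68) and VSMC-type stroma (-1.77, -2.15 to -1.41), and in VSMC-type stroma TNF-Tg lay below the 3 other libraries. In LMC-type stroma tdT2 had none of it, so TNF-Tg lay within the range. Pdgfrb was lower in VSMC-type stroma, at 50.9 against 89.6 CPM (-0.81, -1.08 to -0.55), and in intermediate stroma (-0.60). The call in VSMC-type stroma was lost as a mean over cells (-0.54), and the one in intermediate stroma under TMM scaling (-0.45), both then under the fold. In LMC-type stroma its ratio of -0.32 (-0.49 to -0.15) was smaller in size than the 1.14 (0.83 to 1.44) by which tdT2 exceeded tdT1.

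Pdgfra went 2 ways. It was higher in TNF-Tg LMC-type stroma, by a log2 ratio of 0.22 (0.17 to 0.27), and lower in VSMC-type stroma, by -0.42 (-0.53 to -0.32). Neither fold passed 1.5, and tdT2 over tdT1 in LMC-type stroma was 0.43. In VSMC-type stroma, scaling by TMM, which moved the ratios by 0.20, gave -0.23. Pdgfa was lower in VSMC-type stroma (-1.44, -2.60 to -0.44), and Pdgfd was lower in intermediate stroma (-1.04, -2.07 to -0.08, from 14 and 30 UMIs), a call that the TMM shift of 0.16 there would end, since the interval would then include 0. In LMC-type stroma Pdgfd differed by -0.57 (-0.86 to -0.28) and in VSMC-type stroma by -0.24 (-0.82 to 0.32), both under the fold. Over the members, TNF-Tg lay below the 3 other libraries for 2 genes in LMC-type stroma (Pdgfrb and Pdgfc; 29.9% of all genes did) and above them for 1 (Pdgfa; 26.2% did). In VSMC-type stroma it lay below for 3 (Pdgfra, Pdgfrb and Pdgfrl; 40.9% did) and above for 0 (22.2% did).

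In leukocytes the ratios of Pdgfb ran in both directions. Lyve1 macrophages had 5.13 CPM in TNF-Tg against 1.16 in WT, a log2 ratio of 2.15 (1.11 to 3.16), and 1 of 3 members with enough UMIs was higher there and 0 lower, beside 13.5% and 9.44% of 11198 genes. The TNF-Tg value came from 16 UMIs in 6 of 262 cells, and 8 of them sat in 1 cell that also scored for patrolling monocyte genes. Without such cells the ratio was 1.16 (-0.23 to 2.39). Other macrophages had 2.66 CPM against 12.0 in WT (-2.18, -3.62 to -0.94), and Cd209a dendritic cells 14.5 against 28.2 (-0.96, -1.56 to -0.39), which became -1.94 with classes from clusters. The gates and the clusters divided the macrophages differently: 306 gated Lyve1 macrophages sat in the cluster named other macrophages, which held 518 cells in WT and 327 in TNF-Tg against 205 and 168 by gate. In other macrophages Pdgfa and Pdgfc were lower too, 3 of 3 members and 0 higher, beside 16.0% lower and 14.6% higher of 9071 genes, and in Cd209a dendritic cells 1 of 1 was lower, beside 14.0% of 9113 genes.

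**Figure D5:**
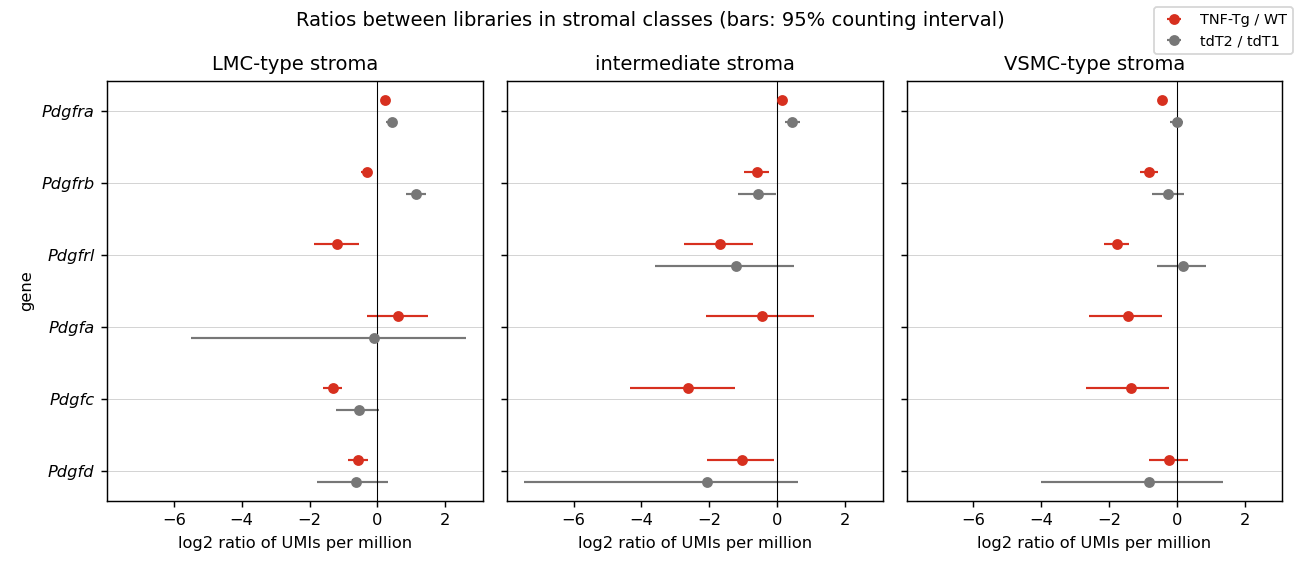
Log2 ratio of CPM (x axis) for 6 PDGF genes in the 3 stromal classes, with TNF-Tg over WT in red, tdT2 over tdT1 in grey and 95% counting intervals as bars; a ratio with 0 UMIs, or with at most 3 on both sides, is not drawn. Pdgfrl and Pdgfc lie left of 0 in red in all 3 classes, and the grey bar of Pdgfrb in LMC-type stroma lies farther from 0 than the red one.

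Genes that act with PDGFs were taken from a list of 36, covering proteases that release or activate ligands, co-receptors and binding proteins, adaptors, negative regulators and immediate-early genes. Between LMC-type and VSMC-type stroma 34 were tested, of which 4 were higher (6.59% of all genes were) and 3 lower (8.31%), with a median log2 fold change of 0.10 against -0.02 for all genes. The protease genes Pcsk6 (4.66, SE 0.23), Plau (1.26, SE 0.21) and Plat (1.03, SE 0.14) were higher in LMC-type stroma, where Pdgfc was also higher. Plat encodes tissue plasminogen activator, which can cleave the C chain, and Plau encodes urokinase, which can cleave the D chain. Cblb, which marks receptors for degradation, was higher by 0.92 (SE 0.14). Spry1, an inhibitor of receptor tyrosine kinase signaling (-2.21, SE 0.21), the co-receptor gene Nrp1 (-2.02, SE 0.19) and Pcsk5 (-0.56, SE 0.14) were lower. Against macrophages, 15 of 35 were higher in stroma (26.0% of all genes were) and 8 lower (18.8%), with a median of 0.04 beside 0.16 for all genes. Among proteases Pcsk6 (8.63), Plat (7.99), Pcsk5 (7.78) and Plau (1.83) were higher and Furin (-0.77) was lower. Among binding proteins Sparc, whose product binds PDGF-B (8.62), and Lrp1 (2.03) were higher and Nrp1 (-1.17) was lower. Of the adaptors and effectors, Src (2.06), Plcg1 (1.95), Nck1 (0.74) and Pik3r1 (0.66) were higher and Grb2 (-2.08) and Gab1 (-1.18) lower. Negative regulators were divided, with Spry2 (4.56), Spry1 (4.18) and Cblb (2.05) higher and Dusp6 (-3.76), Ptpn1 (-2.36), Cbl (-1.95) and Rasa1 (-0.71) lower, and the immediate-early genes Fosl1 (4.85) and Myc (2.87) were higher.

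In TNF-Tg over WT, 3 of 35 listed genes with enough UMIs were higher in LMC-type stroma and 5 lower, beside 11.3% and 12.7% of all genes, with a median of -0.28. In VSMC-type stroma 1 of 34 was higher and 16 lower, beside 10.4% and 25.1%, with a median of -0.47 against -0.23 for all genes. Ier3, an immediate-early gene, was the one that was higher in VSMC-type stroma (1.83, 1.60 to 2.07) and was also higher in LMC-type stroma (1.42, 1.29 to 1.55). Plau went both ways, being higher in LMC-type stroma (0.60, 0.49 to 0.70) and Lyve1 macrophages (1.77, 1.53 to 2.02) and lower in VSMC-type stroma (-0.88, -1.26 to -0.51) and Cd209a dendritic cells (-1.46, -2.66 to -0.38). Spry1 was the other gene higher in LMC-type stroma (0.94, 0.56 to 1.32). Lower there were Dusp6, a feedback phosphatase of the ERK pathway (-1.09, -1.46 to -0.73), Cblb (-0.96), Pcsk6 (-0.80), Pcsk5 (-0.69) and Pik3ca (-0.69). In VSMC-type stroma the genes lower in TNF-Tg included Pcsk6 (-2.21, -4.59 to -0.49, from 3 and 23 UMIs), Pcsk5 (-0.71), Nrp1 (-1.38, -1.55 to -1.21) and Lrp1, a receptor that modulates PDGF signaling (-1.01, -1.09 to -0.93). Adaptors and effectors there were led by Plcg1 (-1.29), Sos1 (-1.08), Pik3r1 (-1.07) and Stat5b (-1.06), and negative regulators that were lower included Cblb (-1.06), Dusp6 (-1.06) and Cbl (-0.77). In Lyve1 macrophages 4 of 31 were higher and 4 lower, beside 13.5% and 9.44% of all genes: Plau, Myc (1.31), Src (1.31) and Ier3 (0.99) were higher and Cblb (-1.04), Sparc (-0.87), Egr1 (-0.66) and Pik3ca (-0.63) lower.

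The genes whose levels over 38 sums of class and library were most like those of each member differed between members. These correlations, of log2(CPM + 1) among 10957 genes, describe sums that share libraries and classes and carry no p. Pdgfra was closest to Agtr1a (r = 0.979), Fgf7 (0.978) and Hoxc11 (0.977), and Pdgfrb to Obsl1 (0.976), Gpc3 (0.963) and Sdc2 (0.961). Closest to Pdgfrl were Echdc2 (0.954), Gsta3 (0.953) and Slc7a2 (0.947), and to Pdgfd Me1 (0.966), Tead1 (0.963) and Cdh13 (0.963). The other ligands had weaker neighbours: Pdgfb had Ccdc69 (0.858), Lsr (0.829) and Abcg3 (0.825), Pdgfc had Cables1 (0.826), C1qtnf1 (0.816) and Pyroxd2 (0.815), and Pdgfa had Gm4951 (0.774), Reps2 (0.752) and Phyhd1 (0.748).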

How the data were processed

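Cells of 4 libraries were profiled by droplet-based 3′ single-cell RNA-seq. The deposited values are UMI counts for every gene in every cell, without normalization, from runs of Cell Ranger by the authors (3.1.0 in the header of tdT1, 6.0.1 in the others, 3.1 and 3.1.0 in the submitters' notes, with mm10), limited to barcodes called as cells. All 10837 cells were kept. Coordinates are those of GENCODE vM21 on the mouse build GRCm38, and the annotation release used for counting is not given in the sources used here.

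Each cell was scored on 22 marker panels (log values per 10000 UMIs, capped at percentile 95 of each gene, averaged) and gated: stroma at a broad stromal score of at least 0.4 and a leukocyte score under 0.2, LMC-type or VSMC-type beyond a score difference of 0.1, and leukocytes by their highest panel. Gate limits were set after the scores were seen, and 23.7%, 7.05%, 5.74% and 10.1% of the cells of tdT1, tdT2, WT and TNF-Tg stayed unassigned. Members, panels and lists were chosen with earlier results of these data known. Doublets were predicted with scanpy 1.11.5 and kept.

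Summed counts were compared with edgeR 4.0.16 in R 4.3.3 (TMM, filterByExpr, quasi-likelihood test, library as block, Benjamini-Hochberg over all genes, 0.01, the threshold in the study's methods), with DESeq2 1.42.0 and classes from Seurat 5.3.0 clusters among the alternatives. On simulated data the fit between stromal classes recovered 56 of 100 genes changed 2-fold and 100 of 100 changed 4-fold among 11405, with 0 false calls, and the fit against macrophages 38 and 100 among 12708, with 0. The changed genes were drawn only from those above a minimum mean level, and a single dispersion was used. These rates do not describe members with lower levels, such as Pdgfa. SE is the log2 fold change over the root of F. Intervals came from scipy 1.17.1 in Python 3.11.15 (exact Poisson, Clopper-Pearson, conditional binomial, 95%), thinning used a seed of 42, and a count of 0 was read against 3 UMIs. Named were all 7 members, listed pathway genes past the threshold of a fit (up to 4 per role and direction) and the 3 closest genes per member. Pathway genes named in the TNF-Tg to WT ratios were chosen after their values were seen.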

Additional observations from a re-analysis of the deposited data

Results flagged for a closer look

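The log2 ratio of Pdgfra in TNF-Tg over WT was of opposite sign between stromal classes, at 0.22 in LMC-type and 0.15 in intermediate stroma against -0.42 in VSMC-type stroma. The difference between the classes was not tested, since each condition had 1 library, and the median gene of VSMC-type stroma was lower by 0.23.

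The log2 ratio of Pdgfb in TNF-Tg over WT was 2.15 in Lyve1 macrophages and of opposite sign in other macrophages (-2.18) and Cd209a dendritic cells (-0.96). The difference was not tested either, and in Lyve1 macrophages 8 of the 16 UMIs of TNF-Tg came from 1 cell.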

How the results depend on the processing

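Values labelled as unchanged numbered 149 of the 166 that answer a comparison and 178 of the 194 for single genes. For a gene in a fit, unchanged meant the same direction and the same side of the threshold. A count had to stay within 1.5 times the main count. A ratio, level or joint share had to stay inside the main counting interval, so a ratio could be unchanged and still lose its call. Reversal was defined only for genes in fits and for called ratios, and none occurred. Without the library block, which pairs the classes of a library, Pdgfc was no longer called between the stromal classes, so that 0 members were higher (adjusted p of Pdgfc = 0.0123), and over all genes 120 were higher and 152 lower in place of 749 and 944, with 1553 lower against macrophages in place of 2412. The block changed no other count by over 1.5 times. With no filter on low counts, 2 members were lower between the stromal classes, Pdgfa (adjusted p = 0.00219) beside Pdgfrl. Leaving out each library in turn gave 1 to 2 members lower and, over all genes, 473 to 706 higher and 516 to 885 lower between the stromal classes, and 1 to 3 members lower and 2182 to 3288 genes higher between stroma and macrophages. With classes from Seurat clusters 1 member was lower against macrophages, and the ratio of Pdgfra in VSMC-type stroma was -0.24 (-0.23 under TMM scaling). That of Pdgfrb there was -0.54 as a mean over cells. After thinning to 1500 UMIs, the joint share of both receptors in WT VSMC-type stroma stood at 1.35 times the product. Its interval included 1 but takes the product as fixed. Pdgfra was found in 58.8% of the Pdgfrb-positive cells there and in 41.1% of the others, a difference that was not tested. Pdgfc against macrophages lost its call in 7 alternatives (adjusted p = 0.0107 to 0.350), and Pdgfa with clusters too (adjusted p = 0.0131). Pdgfb in Cd209a dendritic cells was -1.94 with clusters. The causes were not tested. Ratios between TNF-Tg and WT had no version with a library left out, because each had 1 library.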

Other observations

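A small group of cells in tdT1 carried ligand genes at levels above those of the stroma. The 10 cells gated on contractile genes there had 548 UMIs of Acta2, 159 of Myh11, 140 of Krt14 and 49 of Oxtr, with 17 UMIs of Pdgfa (199 CPM, 116 to 318), 23 of Pdgfc (269 CPM, 171 to 404), 7 of Pdgfb and 0 of Pdgfrb. The 16 cells of tdT1 with at least 3 UMIs of Krt5 and Krt14 together, 8 of them among those 10, held 27 of the 62 Pdgfa UMIs of tdT1 (43.5%, 31.0 to 56.7) and 0 UMIs of Pdgfrb, and the other libraries had no such cell. These cells were singled out after their values were seen, and no cell type is given to them. In TNF-Tg, 9 of the 101 Pdgfa UMIs lay in 6 endothelial cells (152 CPM, 69.5 to 289). Among the 32 unassigned cells of tdT2, 3 held 10 UMIs of Pdgfrb (107 CPM, 51.2 to 196) while Pdgfra had 0 UMIs in all 32, the opposite of the stromal cells, and the 356 unassigned cells of tdT1 had 93.4 CPM of Pdgfra and 37.4 CPM of Pdgfrb.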
